A study of Mus musculus with 30 samples.

Results

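The genes of bile acid synthesis and transport examined here were 9 of the 14173 genes counted in mouse liver, namely *Cyp7a1*, *Cyp8b1*, *Cyp27a1*, *Cyp7b1*, *Nr0b2*, *Abcb11*, *Slc10a1*, *Baat* and *Slc27a5*. They were taken by gene symbol, and all 9 had enough counts to be tested in every comparison. Livers came from 30 male C57BL6/J mice aged 6 months, 6 on each of 5 diets that were fed for 12 weeks, and all had been fasted for 4 h. The study asked whether restricting a whole protein acts as a restriction of its methionine, using casein and soy as the protein sources.

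All mice ate a diet whose protein was casein or soy only. Cas-20% held 20% casein with 0.57 g methionine and 0.41 g cysteine per 100 g, and Cas-5% held 5% casein with 0.15 g and 0.1 g. Soy-20% held 20% soy with 0.22 g of each amino acid, and Soy-20% + SAA was the same diet with added sulfur amino acids (SAA), giving 0.58 g methionine and 0.41 g cysteine. Soy-10%, given as 11.5% soy in the sample labels, held 0.13 g of each. The mice that ate Soy-20% + SAA or Soy-10% had been on Soy-20% for 2 weeks first, and those that ate Cas-5% had been on Cas-20%. Cas-20% against Soy-20% + SAA therefore compared the protein sources at nearly equal SAA, and so did Cas-5% against Soy-10%, although at different protein levels. Cas-20% against Soy-20% compared them at equal protein with unequal SAA.

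Bile acids are made from cholesterol in hepatocytes by a classic pathway, opened by a 7-alpha-hydroxylase, and by an alternative pathway that begins with side chain oxidation. They are joined to taurine or glycine, pumped into bile, and largely taken up again from the gut and portal blood. Their return to the liver represses their own synthesis, in part through the nuclear receptor FXR and its target SHP, which is encoded by *Nr0b2*. In mice the conjugate is almost wholly taurine, an end product of the metabolism of cysteine.

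Promoter sequences are shown for *Cyp8b1*, the member higher in soy-fed than casein-fed livers in each of the 3 comparisons of protein source. They are also shown for *Nr0b2*, the 1 of 9 members that passed the test of casein against soy restriction, as 8.69% of all genes did. That test was passed in 10 of 24 fits that each left out 1 liver. Each run is the 250 bases before the RefSeq transcript start on GRCm38.p6, written 5′ to 3′ on the strand of the gene, and capitals mark the matches to the motifs searched. *Cyp8b1* lies on the minus strand and the run covers chr9:121916306-121916555. *Nr0b2* lies on the plus strand and the run covers chr4:133553126-133553375.
Cyp8b1: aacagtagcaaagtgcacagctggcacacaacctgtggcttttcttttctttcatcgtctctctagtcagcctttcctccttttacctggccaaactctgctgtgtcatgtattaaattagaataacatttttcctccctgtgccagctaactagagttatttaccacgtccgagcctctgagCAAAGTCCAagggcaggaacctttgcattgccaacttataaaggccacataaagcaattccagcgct
Nr0b2: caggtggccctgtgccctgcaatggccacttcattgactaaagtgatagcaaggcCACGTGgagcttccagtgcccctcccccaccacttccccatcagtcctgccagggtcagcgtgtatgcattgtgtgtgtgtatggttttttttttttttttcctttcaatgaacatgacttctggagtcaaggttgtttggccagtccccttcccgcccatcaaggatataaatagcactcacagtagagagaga
The motifs searched on both strands were the extended half-site of the LRH-1 type CAAGGTCA, the HNF4-type element CAAAGTCCA, the D-box TTATGTAA, the E-box CACGTG and the nuclear receptor half-site AGGTCA, which is contained in the first of them. The *Cyp8b1* run held CAAAGTCCA at 67 to 59 bases before the start, and 0.384% of 32851 promoters of this length held that motif. The *Nr0b2* run held CACGTG at 195 to 190 bases before the start, a motif found in 6.02% of promoters. Of the other 3 members with a RefSeq promoter, *Abcb11* and *Slc10a1* held AGGTCA, as 14% of promoters did, and *Cyp27a1* held none of the 5. For *Slc10a1* the run at chr12:80968080-80968329 held it, while that at chr12:80968706-80968955 did not. These matches are descriptions of the sequence.

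The values below are normalized counts, reads per gene divided by the size factor that the authors computed for each library with DESeq2. They are not scaled for length, so they compare diets within a gene. Fold changes come from edgeR quasi-likelihood tests on the raw counts of the diets compared, and a gene is termed called where the Benjamini-Hochberg adjusted p over all genes tested in that comparison was below 0.05. Library totals ran from 7694015 to 14565542. Of the libraries, 4 of 6 from Soy-20% + SAA (livers 3 to 6) stood apart. In these the log2 level of genes rose on average by 0.059 to 0.204 for each 10 percentage points of GC in its last 200 nucleotides, against -0.062 to 0.026 in the other 26 libraries. Soy-10% liver 4 also stood apart, with 5 pancreatic acinar markers summing to 5922 normalized counts against at most 5.361 in any other library. The hepatocyte markers *Alb* and *Apoa1* were high in every liver. The sum over 6 hepatocyte markers, most of it *Alb*, ran from 682387 to 916782. With casein restriction 1 of these 6 was called higher and 2 lower, where 11.6% and 13.3% of all genes were. Mean *Cps1* was 10645 in Cas-20% and 3985 in Cas-5%, and mean *Tat* 5123 and 1640. In Soy-20% + SAA and in Soy-20%, 2 of the 6 were called lower than in Cas-20%, against 1.42% and 1.45% of all genes. Since whole liver was homogenized, fewer cells of a type and less RNA per cell cannot be told apart.

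Soy-fed livers held more *Cyp8b1* RNA than casein-fed livers in all 3 comparisons of protein source. *Cyp8b1* (chr9:121914356-121916305, GRCm38, minus strand) encodes the sterol 12-alpha-hydroxylase that sets the share of cholic acid in the bile acid pool. Its normalized count ran from 3419 to 4678 in Cas-20%, with a median of 3842, and from 2989 to 5708 in Cas-5%, with a median of 4394. It ran from 4352 to 6620 in Soy-20% (median 5853), from 5103 to 6764 in Soy-10% (median 6259) and from 5632 to 9370 in Soy-20% + SAA (median 7097). All 6 Soy-20% + SAA livers lay above all Cas-20% livers, 5 of 6 Soy-20% livers did so, and 4 of 6 Soy-10% livers lay above all Cas-5% livers. In order of their means the diets were Cas-20% (4006 ± 494.4, SD, n = 6), Cas-5% (4323 ± 909), Soy-20% (5663 ± 1018), Soy-10% (6074 ± 685.8) and Soy-20% + SAA (7225 ± 1237). The SD ranges of neighbours in this order overlapped at each step.

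**Figure D1:**
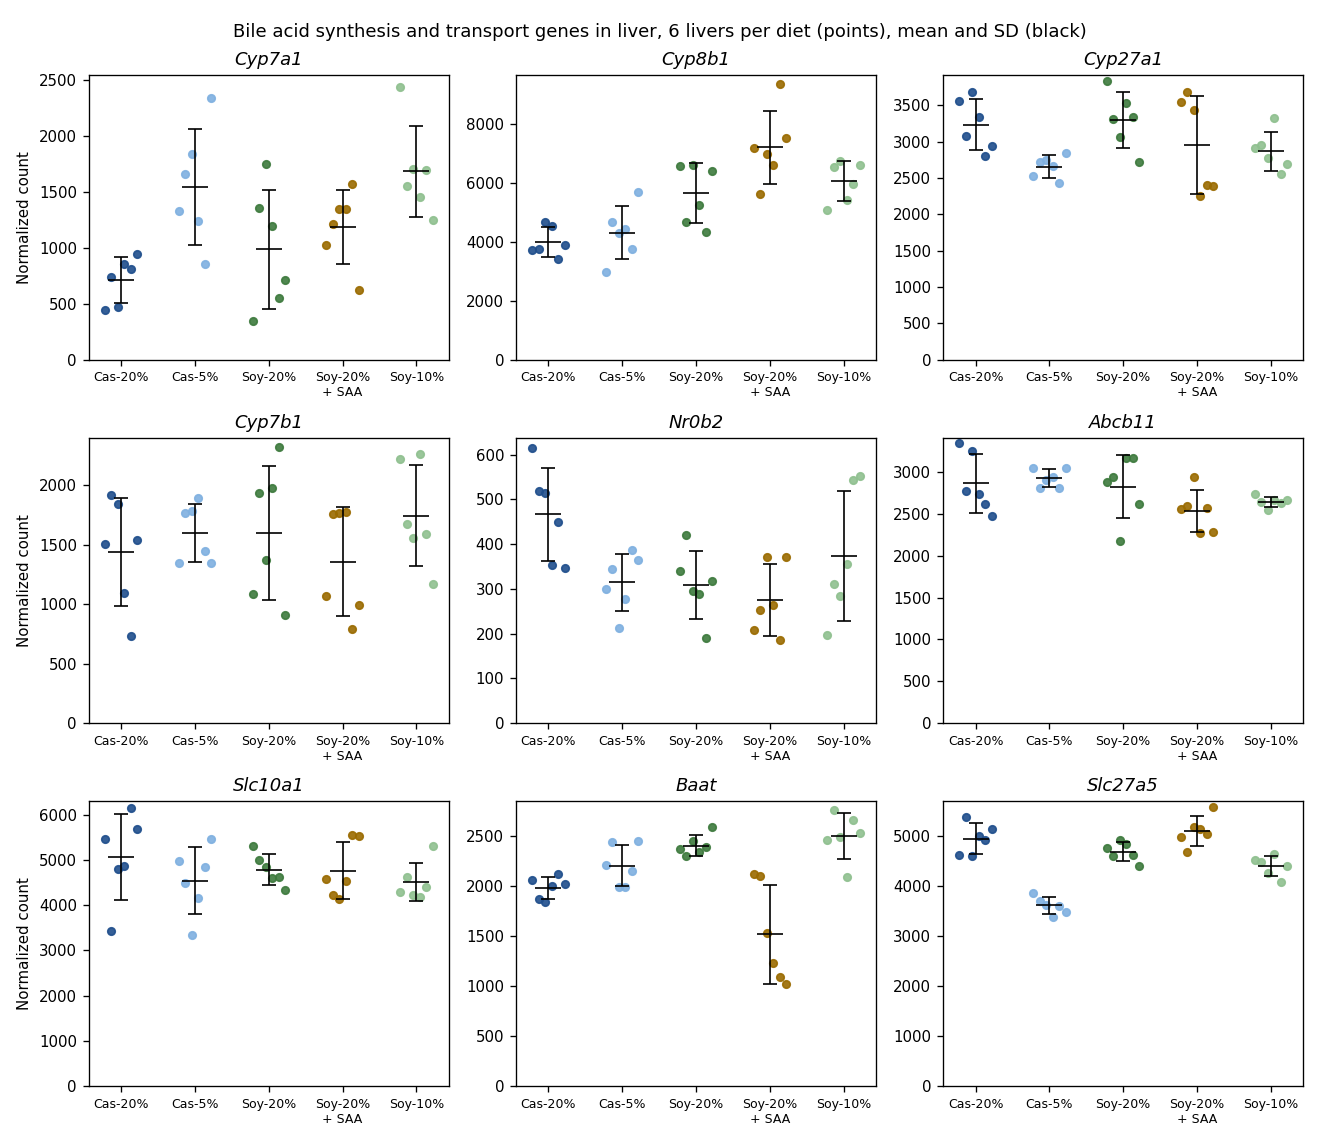
Normalized counts (vertical axes, from 0) of the 9 genes by diet, with each liver as a point and the mean and SD in black, 6 livers per diet. The *Cyp8b1* points of the 3 soy diets sit mostly above those of both casein diets, *Slc27a5* is lowest in Cas-5%, and *Baat* spreads from 1021 to 2119 in Soy-20% + SAA.

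At nearly equal SAA, *Cyp8b1* was 1.80-fold higher in Soy-20% + SAA than in Cas-20% (log2 difference 0.85, SE 0.11, adjusted p = 0.0069, edgeR). Without added SAA, it was 1.41-fold higher in Soy-20% than in Cas-20% (0.50, SE 0.12, adjusted p = 0.031). Among the restricted diets, it was 1.39-fold higher in Soy-10% than in Cas-5% (0.47, SE 0.12, adjusted p = 0.014). The first 2 of these comparisons share the Cas-20% livers and are not independent of each other, while the third uses other livers. The call for the restricted diets and that for Soy-20% + SAA held in 12 of 12 fits that each left out 1 liver. The call for Soy-20% held in 5 of 12 such fits, and was lost without Soy-20% livers 1, 3, 4 or 6 or Cas-20% livers 1, 2 or 5, with adjusted p of 0.056 to 0.065. With the 4 Soy-20% + SAA libraries that stood apart left out, the log2 difference between Soy-20% + SAA and Cas-20% was 0.68 (adjusted p = 0.25), resting on 2 livers whose counts were 7187.8 and 5632.3. With the GC slope as a covariate it was 0.71 (adjusted p = 0.065).

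The level of protein or SAA within 1 protein source gave no called difference in *Cyp8b1* with all livers of the diets compared. Its log2 difference was 0.12 for Cas-5% minus Cas-20% (95% interval -0.14 to 0.39, adjusted p = 0.51) and 0.10 for Soy-10% minus Soy-20% (-0.13 to 0.33, adjusted p = 0.79). Soy-10% minus Soy-20% + SAA gave -0.25 (-0.49 to -0.02, adjusted p = 0.12), and Soy-20% + SAA minus Soy-20% gave 0.34 (0.06 to 0.62, adjusted p = 0.13). Without Soy-20% + SAA liver 2, Soy-10% minus Soy-20% + SAA was called at -0.31 (adjusted p = 0.04), the 1 of 12 fits leaving out 1 liver that did so. The 3 genes whose log2 expression followed *Cyp8b1* most closely over the 30 livers were *Cmas* (Pearson r = 0.833), *Gpd1* (0.828) and *Pebp1* (0.819), among 12032 genes, where all points share the diets.

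*Cyp7a1* (chr4:6265612-6275633, minus strand), the rate-limiting enzyme of the classic pathway, rose when casein was restricted. Its normalized count ran from 448.6 to 941.3 in Cas-20% (median 772.5) and from 855.6 to 2341 in Cas-5% (median 1495). It ran from 349.6 to 1747 in Soy-20% (median 956.3), from 619.9 to 1572 in Soy-20% + SAA (median 1279) and from 1245 to 2441 in Soy-10% (median 1622). All but 1 of the Cas-5% livers lay above every Cas-20% liver, and 5 of 6 Soy-20% + SAA livers did so too, while Soy-20% spread on both sides of the Cas-20% range. The order of the means was Cas-20% (710.5 ± 203.7), Soy-20% (986.3 ± 534.4), Soy-20% + SAA (1188 ± 331), Cas-5% (1544 ± 518.5) and Soy-10% (1682 ± 408.4), and the SD ranges of neighbours overlapped at each step.

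The rise from Cas-20% to Cas-5% was 2.20-fold (log2 difference 1.13, SE 0.22, adjusted p = 0.0011), and it was called in 12 of 12 fits that left out 1 liver, at 0.97 to 1.26. Soy restriction gave values in the same direction that were not called. Soy-10% was 1.41-fold above Soy-20% + SAA (0.50, 95% interval 0.09 to 0.91, adjusted p = 0.084) and 1.70-fold above Soy-20% (0.77, 0.15 to 1.38, adjusted p = 0.27). The difference between the casein and the soy effect was itself not called (0.63, -0.02 to 1.28, adjusted p = 0.21).

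Between protein sources, *Cyp7a1* was 1.67-fold higher in Soy-20% + SAA than in Cas-20%, and the test missed the threshold (0.74, 95% interval 0.27 to 1.21, adjusted p = 0.069). DESeq2 called this difference (0.75, adjusted p = 0.017), and so did edgeR without Soy-20% + SAA liver 1 (0.77, adjusted p = 0.039). Soy-20% minus Cas-20% was 0.47 (-0.19 to 1.14, adjusted p = 0.47), and Soy-10% minus Cas-5% was 0.11 (-0.29 to 0.50, adjusted p = 0.78). The genes whose expression followed *Cyp7a1* most closely were *Ptbp3* (Pearson r = 0.805), *Hhex* (0.792) and *Zkscan17* (0.768), over the same livers.

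*Cyp7a1* is known to cycle over the day, and clock genes moved with casein restriction. Of 10 such genes tested, 6 were lower and 0 higher in Cas-5% than in Cas-20%, where 13.3% of all genes were called lower, among them *Per2* (log2 difference -1.53, adjusted p = 7.4e-06) and *Dbp* (-1.43, adjusted p = 0.00054). In Soy-20% + SAA and in Soy-20%, 2 of the 10 were called lower and 0 higher than in Cas-20%. Of all genes, 1.42% and 1.45% were lower there. Soy-10% against Soy-20% + SAA gave 2 lower and 0 higher, where 8.47% of all genes were lower. In Soy-10% against Cas-5%, 1 of 9 was higher and 0 lower, where 6.14% of all genes were higher. Mean *Tef* was 1014 in Cas-20% and 1448 in Soy-20% + SAA, and mean *Nr1d2* 761 and 1006, neither called. *Per2* was lower in Soy-20% + SAA (-0.72, adjusted p = 0.043) and in Soy-20% (-1.13, adjusted p = 0.029) than in Cas-20%. It was also lower in Soy-10% than in Soy-20% + SAA (-0.57, adjusted p = 0.046). Those of these calls that use Soy-20% + SAA were not checked without the 4 libraries that stood apart. The part of time of day or feeding in the *Cyp7a1* values was not tested.

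*Nr0b2* (chr4:133553376-133556536, plus strand), the co-repressor SHP that acts on *Cyp7a1* and *Cyp8b1*, was highest in Cas-20%. Its normalized count ran from 347.7 to 615.8 in Cas-20% (median 482.2), from 211.5 to 387.3 in Cas-5% (median 321.9) and from 189.8 to 420.1 in Soy-20% (median 306.2). It ran from 185.5 to 371.7 in Soy-20% + SAA (median 258.2) and from 196 to 552.8 in Soy-10% (median 333.2). The ranges overlapped between all pairs of diets, although 5 of 6 Soy-20% livers and 4 of 6 livers of both Cas-5% and Soy-20% + SAA lay below every Cas-20% liver. From the highest mean the order was Cas-20% (466.5 ± 104.6), Soy-10% (373.7 ± 144.8), Cas-5% (314.3 ± 64.71), Soy-20% (308.6 ± 75.22) and Soy-20% + SAA (275.3 ± 79.7), with SD ranges of neighbours overlapping at every step.

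Casein restriction lowered *Nr0b2* by 1.47-fold (log2 difference -0.56, SE 0.15, adjusted p = 0.013), a call kept in 12 of 12 fits that left out 1 liver. With all 30 livers in 1 fit the same value had an adjusted p of 0.054. Soy restriction gave 0.43 against Soy-20% + SAA (95% interval -0.08 to 0.95, adjusted p = 0.22) and 0.27 against Soy-20% (-0.20 to 0.73, adjusted p = 0.69), neither of them called. The effect of casein restriction less that of soy restriction was -1.0 (SE 0.31, adjusted p = 0.042) in 24 livers, which makes *Nr0b2* 1 of 9 members for which the difference of effects was called, against 8.69% of all genes tested. That call held in 10 of 24 fits without 1 liver, at -1.13 to -0.85. It was lost without any 1 of Cas-5% livers 1, 2, 3, 4 or 6, Cas-20% livers 1, 2, 3 or 5, Soy-10% livers 4, 5 or 6 or Soy-20% + SAA livers 4 or 5, with adjusted p of at most 0.08. Without Soy-10% liver 4, the library with acinar RNA, it was -1.01 (adjusted p = 0.053). Without the 4 Soy-20% + SAA libraries that stood apart it was -1.25 (adjusted p = 0.071), and with Soy-20% in place of Soy-20% + SAA it was -0.83 (adjusted p = 0.094). With the GC slope as a covariate it was -1.04 (adjusted p = 0.087).

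Against Cas-20%, *Nr0b2* was 1.70-fold lower in Soy-20% + SAA (-0.76, SE 0.19, adjusted p = 0.047) and 1.51-fold lower in Soy-20%, where the test missed the threshold (-0.59, SE 0.17, adjusted p = 0.069). DESeq2 called the latter (-0.59, adjusted p = 0.02), and so did edgeR without Soy-20% liver 2 (-0.70, adjusted p = 0.045) or Cas-20% liver 6 (-0.67, adjusted p = 0.038). The call for Soy-20% + SAA held in 2 of 12 fits, those without Soy-20% + SAA livers 1 or 2, and without any other single liver the adjusted p was 0.053 to 0.11. It was -1.02 (adjusted p = 0.35) without the 4 libraries that stood apart, resting on 2 livers with counts of 207.4 and 252.9, and -0.88 (adjusted p = 0.21) with the GC slope as a covariate. Soy-10% and Cas-5% were not called different (0.23, -0.20 to 0.65, adjusted p = 0.53). Patterns most like that of *Nr0b2* were those of *Angptl8* (Pearson r = 0.694), *Fbrsl1* (0.619) and *Birc3* (0.613).

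**Figure D2:**
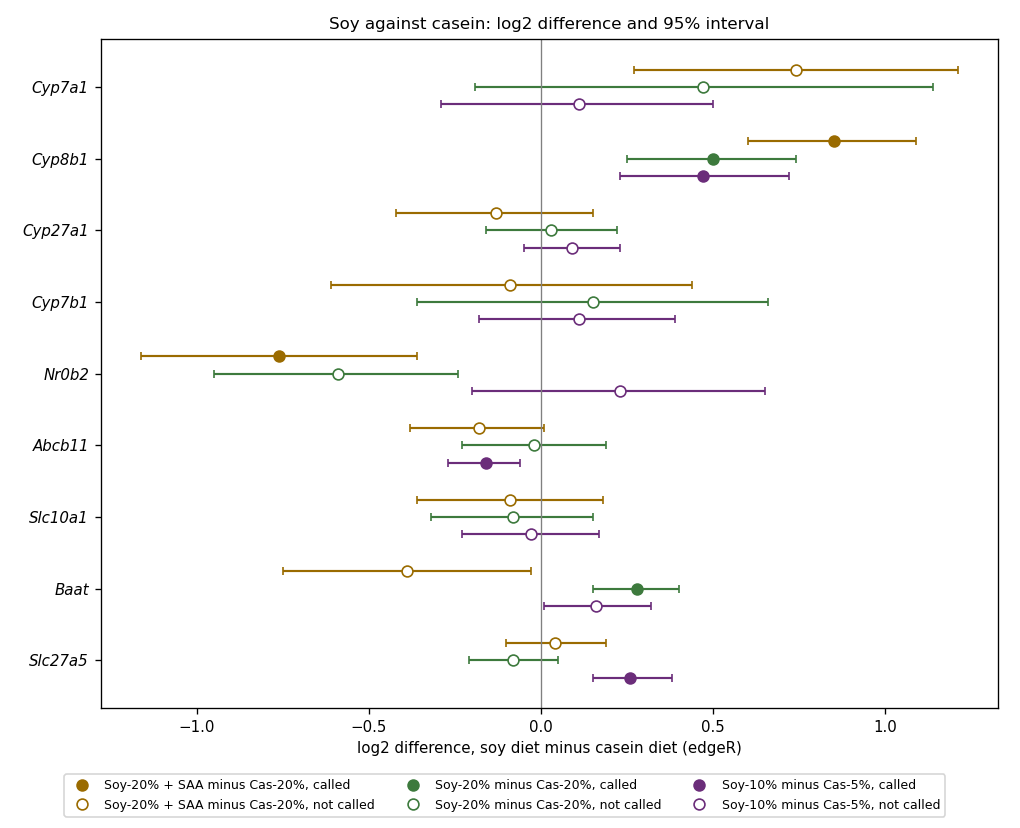
Log2 difference between a soy and a casein diet (horizontal axis, edgeR, with 95% intervals) for the 9 genes, 6 livers per diet, filled points being called. *Cyp8b1* lies above 0 with a filled point in all 3 comparisons, at 0.85, 0.50 and 0.47, and *Nr0b2* is called only for Soy-20% + SAA minus Cas-20%.

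Neither enzyme of the alternative pathway was called between protein sources. *Cyp27a1* (chr1:74713574-74737892, plus strand) encodes the mitochondrial sterol 27-hydroxylase that begins this pathway, and *Cyp7b1* (chr3:18071950-18243338, minus strand) the oxysterol 7-alpha-hydroxylase that follows. *Cyp27a1* ran from 2805 to 3682 in Cas-20% (median 3211) and from 2427 to 2847 in Cas-5% (median 2695), so that 5 of 6 Cas-5% livers lay below all Cas-20% livers. This 1.21-fold fall was called (log2 difference -0.27, SE 0.08, adjusted p = 0.015), but not with all 30 livers in 1 fit (-0.27, adjusted p = 0.06) or with the GC slope as a covariate (-0.23, adjusted p = 0.051). It ran from 2727 to 3841 in Soy-20% (median 3324), from 2250 to 3688 in Soy-20% + SAA (median 2921) and from 2550 to 3326 in Soy-10% (median 2842), ranges that all overlapped. Soy-10% minus Soy-20% was -0.20 (-0.38 to -0.03, adjusted p = 0.3). The 3 soy minus casein values of *Cyp27a1* lay between -0.13 and 0.09, and none was called.

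The diet means of *Cyp7b1* lay within the spread of livers on a single diet. Its means were 1439 ± 453.5 in Cas-20%, 1599 ± 244.5 in Cas-5%, 1598 ± 560.4 in Soy-20%, 1357 ± 456.3 in Soy-20% + SAA and 1745 ± 421.6 in Soy-10%. The lowest liver of all was at 730.9 in Cas-20% and the highest at 2318 in Soy-20%. No comparison called it, and its widest interval between 2 diets, for Soy-20% + SAA minus Soy-20%, ran from -0.78 to 0.29.

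Of the conjugating enzymes, *Slc27a5* responded to casein restriction. *Slc27a5* (chr7:12988346-12998192, minus strand) encodes the bile acyl-CoA synthetase that activates bile acids, and *Baat* (chr4:49489422-49506557, minus strand) the transferase that joins them to taurine or glycine. *Slc27a5* ran from 4599 to 5389 in Cas-20% (median 4963) and from 3388 to 3870 in Cas-5% (median 3617), with no overlap. It ran from 4403 to 4921 in Soy-20% (median 4687), from 4680 to 5586 in Soy-20% + SAA (median 5091) and from 4082 to 4641 in Soy-10% (median 4437). All 6 Soy-10% livers lay below all Soy-20% + SAA livers and above all Cas-5% livers. By mean the order was Cas-5% (3613 ± 170.6), Soy-10% (4396 ± 198.5), Soy-20% (4687 ± 188.3), Cas-20% (4947 ± 304.5) and Soy-20% + SAA (5102 ± 296.7), and only Cas-5% stood clear of its neighbour in range.

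*Slc27a5* fell by 1.36-fold with casein restriction (log2 difference -0.44, SE 0.06, adjusted p = 7.7e-05) and by 1.16-fold from Soy-20% + SAA to Soy-10% (-0.22, SE 0.06, adjusted p = 0.025). Soy-10% minus Soy-20% was -0.09 (95% interval -0.20 to 0.02, adjusted p = 0.5). Among the restricted diets, *Slc27a5* was 1.20-fold higher in Soy-10% than in Cas-5% (0.26, SE 0.06, adjusted p = 0.0047). The casein and restricted-diet calls each held in 12 of 12 fits without 1 liver. The call for Soy-10% minus Soy-20% + SAA held in 9 of 12, being lost without Soy-10% livers 3 or 5 or Soy-20% + SAA liver 6 (adjusted p of 0.056 to 0.059), and it was -0.14 (adjusted p = 0.29) with the GC slope as a covariate and -0.14 (adjusted p = 0.38) without the 4 libraries that stood apart. The difference of the 2 restriction effects missed the threshold (-0.23, SE 0.08, adjusted p = 0.071), and with Soy-20% in place of Soy-20% + SAA it was called (-0.35, adjusted p = 0.0043). It was also called by DESeq2 (adjusted p = 0.021), with all 30 livers in 1 fit (0.045) and with the GC slope as a covariate (0.049).

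*Baat* moved with the GC slope of the library in the Soy-20% + SAA livers. Its counts in livers 1 to 6 of that diet were 2119, 2106, 1532, 1234, 1093 and 1021, where the slopes were -0.029, -0.026, 0.059, 0.186, 0.178 and 0.204. The last 200 nucleotides of its transcript hold 26.5% GC, the lowest of the 9 members, which otherwise ran from 36.0 to 50.5%. It ran from 1838 to 2119 in Cas-20% (median 2012), from 1987 to 2454 in Cas-5% (median 2181), from 2297 to 2595 in Soy-20% (median 2378) and from 2090 to 2762 in Soy-10% (median 2512). The 2 livers of Soy-20% + SAA with slopes like those of other diets thus lay within or at the edge of the Cas-20% range. They also lay below every Soy-20% liver, as did all 6 Soy-20% + SAA livers.

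**Figure D3:**
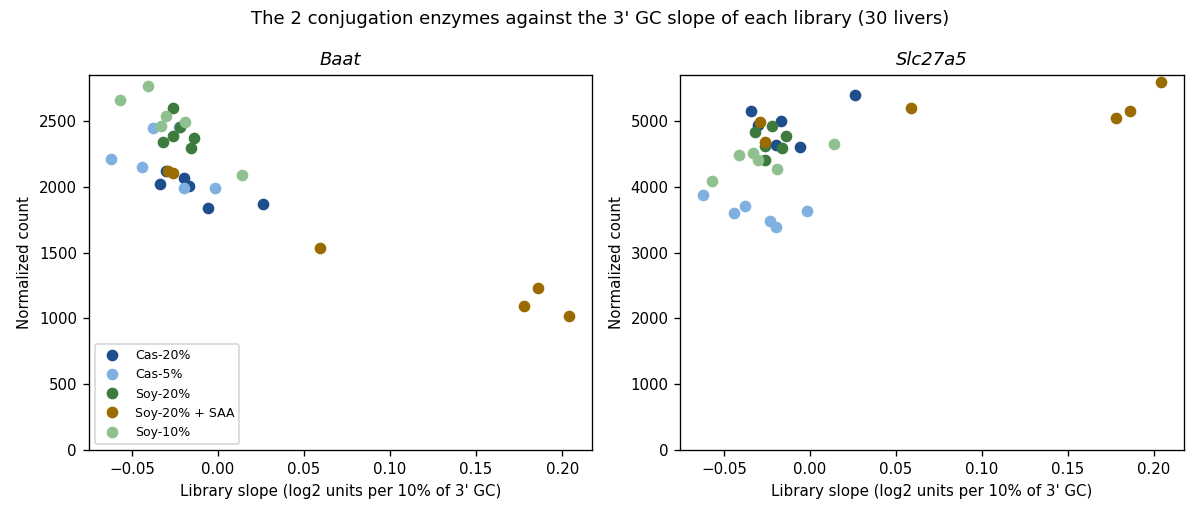
Normalized counts of *Baat* and *Slc27a5* (vertical axes, from 0) against the 3′ GC slope of each of the 30 libraries (horizontal axis, log2 units per 10% GC), coloured by diet. The 4 Soy-20% + SAA libraries with slopes from 0.059 to 0.204 have the lowest *Baat* counts, 1021 to 1532, while their *Slc27a5* counts stay in the upper part of the range.

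*Baat* was called 1.65-fold higher in Soy-10% than in Soy-20% + SAA (log2 difference 0.72, SE 0.17, adjusted p = 0.013). With the GC slope as a covariate the value was 0.25 (adjusted p = 0.076), and without the 4 libraries it was 0.24 (adjusted p = 0.25). Against Soy-20%, none of whose libraries stood apart, the value was 0.05 (95% interval -0.08 to 0.19, adjusted p = 0.82). *Baat* was 1.21-fold higher in Soy-20% than in Cas-20%, with no overlap between the livers (0.28, SE 0.06, adjusted p = 0.021), a call kept in 11 of 12 fits and lost without Cas-20% liver 3 (adjusted p = 0.051). That call was also lost with all 30 livers in 1 fit (adjusted p = 0.23). Soy-10% minus Cas-5% was 0.16 (0.01 to 0.32, adjusted p = 0.18) and Cas-5% minus Cas-20% was 0.17 (0.01 to 0.32, adjusted p = 0.1). Soy-20% + SAA minus Cas-20% was -0.39 (adjusted p = 0.16), and 0.09 without the 4 libraries. For *Baat* the difference of the 2 restriction effects was -0.56 (adjusted p = 0.067), which DESeq2 called (adjusted p = 0.044), as did edgeR with all 30 livers in 1 fit (adjusted p = 0.039), and it was 0.11 with Soy-20% in place of Soy-20% + SAA. Soy-20% + SAA minus Soy-20% was -0.67 (adjusted p = 0.066), which DESeq2 called (-0.67, adjusted p = 0.0082).

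The 2 transporters of the hepatocyte membrane gave 1 call between them. *Abcb11* (chr2:69238282-69342616, minus strand) encodes the bile salt export pump of the canalicular membrane, and *Slc10a1* (chr12:80953183-80968705, minus strand) the sodium-dependent uptake carrier NTCP of the sinusoidal side. *Abcb11* means were 2870 ± 353.8 in Cas-20%, 2929 ± 109.7 in Cas-5%, 2827 ± 375.1 in Soy-20%, 2536 ± 247.9 in Soy-20% + SAA and 2649 ± 60.36 in Soy-10%. All 6 Soy-10% livers, at 2550 to 2735, lay below all Cas-5% livers, at 2811 to 3056. This 1.12-fold difference was called (log2 difference -0.16, SE 0.05, adjusted p = 0.045), but the call held in only 2 of 12 fits, those without Cas-5% livers 2 or 5, and the adjusted p reached 0.097 in the others. It was also lost in the fit with no count filter (adjusted p = 0.059) and with all 30 livers in 1 fit (adjusted p = 0.28).

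*Slc10a1* was not called in any comparison without a covariate. With the GC slope as a covariate its value for Cas-5% minus Cas-20% was -0.32 (adjusted p = 0.026), a call, against -0.14 (adjusted p = 0.47) without it. Its means were 5066 ± 948.8 in Cas-20%, 4543 ± 739.7 in Cas-5%, 4780 ± 339.9 in Soy-20%, 4759 ± 626.5 in Soy-20% + SAA and 4509 ± 423.9 in Soy-10%, and every pair of diets overlapped. Its widest intervals between 2 diets were -0.42 to 0.13 for Cas-5% minus Cas-20% and -0.36 to 0.18 for Soy-20% + SAA minus Cas-20%, both without the covariate.

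**Figure D4:**
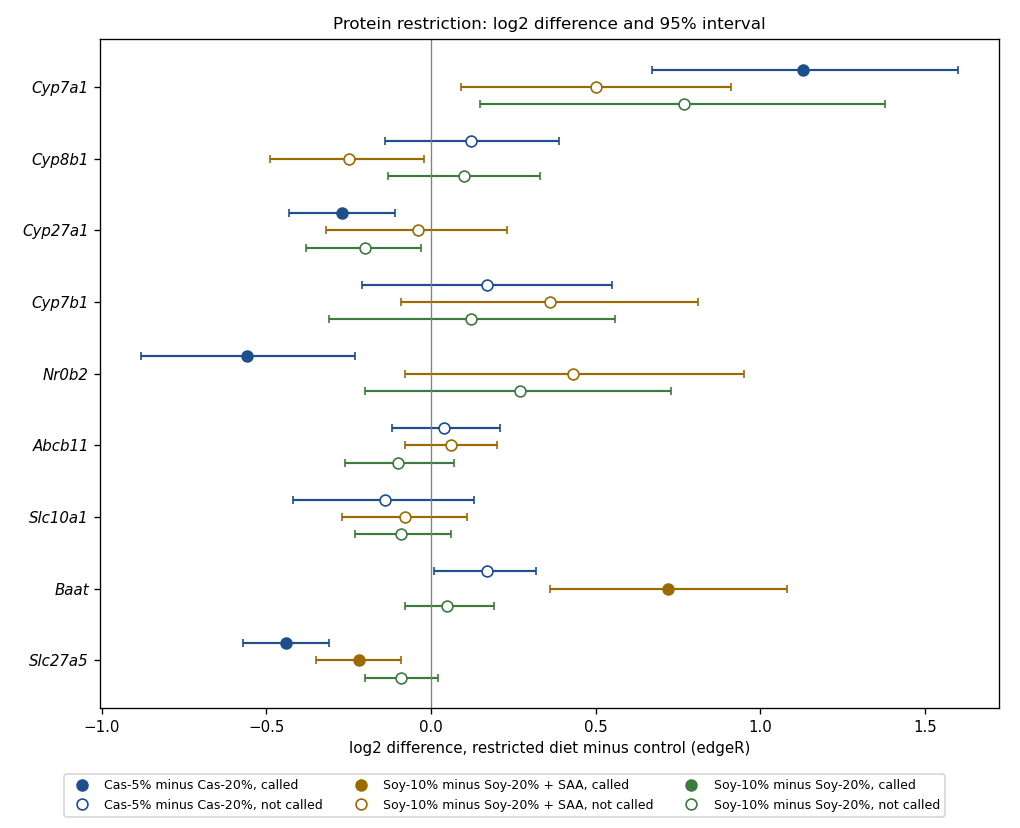
Log2 difference between a protein-restricted diet and its control (horizontal axis, edgeR, with 95% intervals) for the 9 genes, 6 livers per diet, filled points being called. Casein restriction has filled points for *Cyp7a1* (1.13), *Nr0b2* (-0.56), *Slc27a5* (-0.44) and *Cyp27a1* (-0.27), and soy restriction against Soy-20% + SAA for *Baat* (0.72) and *Slc27a5* (-0.22).

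Counted together, a joint test over the 5 diets called 5 of the 9 members, against 43.4% of all genes tested. These were *Slc27a5* (adjusted p = 1.3e-07), *Cyp8b1* (1.8e-05), *Baat* (0.00026), *Cyp7a1* (0.0046) and *Nr0b2* (0.03), and the others had adjusted p of 0.089 for *Cyp27a1*, 0.12 for *Abcb11*, 0.61 for *Cyp7b1* and 0.67 for *Slc10a1*. For casein restriction 4 of 9 members were called, 1 higher and 3 lower, where 24.9% of genes were called, 11.6% higher and 13.3% lower. For soy restriction against Soy-20% + SAA 2 were called, 1 in each direction, where 17.0% of genes were called, 8.51% higher and 8.47% lower. Against Soy-20% none was called by edgeR or DESeq2, with 2 members at an unadjusted p under 0.05, where 0.866% of genes were called, 0.319% higher and 0.546% lower.

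Between protein sources, 2 of 9 members were called for Soy-20% + SAA minus Cas-20%, 1 higher and 1 lower, where 2.43% of genes were called, 1.01% higher and 1.42% lower. That share is not stable, since the 291 genes behind it became 9 when liver 6 of Soy-20% + SAA was left out, 1817 when liver 1 was, 5 with the GC slope as a covariate and 3 without the 4 libraries that stood apart. For Soy-20% minus Cas-20% 2 were called, both higher, where 2.69% of genes were called, 1.24% higher and 1.45% lower. For Soy-10% minus Cas-5% 3 were called, 2 higher and 1 lower, where 10.7% of genes were called, 6.14% higher and 4.59% lower. For Soy-20% + SAA minus Soy-20% none was called by edgeR and 1 by DESeq2, with 2 members at an unadjusted p under 0.05, as were 2892 of 11932 genes. Here edgeR called 0.00838% of genes, all higher and 0% lower, while DESeq2 called 885 genes. Without Soy-10% liver 4, the library with acinar RNA, the *Abcb11* call for Soy-10% minus Cas-5% was lost (-0.16, adjusted p = 0.058), while *Cyp8b1* and *Slc27a5* stayed called there (0.50 and 0.25). In the difference of effects 3.20% of genes were called above 0 and 5.49% below. The median log2 difference of the members was 0.04 with casein restriction and 0.06 with soy restriction against Soy-20% + SAA, against 0.02 and -0.01 over all genes. It was -0.09, 0.03 and 0.11 for the 3 soy minus casein comparisons in the order given here, against 0.00, -0.01 and -0.01 over all genes.

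Beyond the members, 15 further genes of bile acid synthesis were tested. Genes beyond the members, clock and marker genes included, have calls only from the edgeR fit of the diets compared. Their calls were not checked with the GC slope as a covariate or without the 4 libraries that stood apart. Over all genes, 11.6% were called higher and 13.3% lower with casein restriction, and 8.51% and 8.47% with soy restriction against Soy-20% + SAA. With casein restriction 4 were higher and 3 lower, led by *Cyp39a1*, an oxysterol 7-alpha-hydroxylase, which rose 4.26-fold (log2 difference 2.09, adjusted p = 8.3e-07). *Acnat2*, an acyl-CoA:amino acid N-acyltransferase, rose 2.86-fold (1.52, adjusted p = 4.6e-06), and *Cyp2c70*, the enzyme that makes muricholic acids in mice, fell 2.44-fold (-1.29, adjusted p = 9.6e-06). With soy restriction against Soy-20% + SAA 4 were higher and 2 lower, among them *Cyp2c70* (-0.90, adjusted p = 0.00035), the 3-alpha-hydroxysteroid dehydrogenase *Akr1c14* (0.91, adjusted p = 0.00037) and *Cyp39a1* (1.48, adjusted p = 0.0006). *Cyp39a1* ran from 38.05 to 63.4 in Cas-20% and from 139.7 to 315.3 in Cas-5%, and from 30.67 to 63.23 in Soy-20% + SAA and from 99.74 to 178.4 in Soy-10%, with no overlap in either pair. Of these 15 genes edgeR called none for Soy-20% + SAA or Soy-20% against Cas-20%, with 4 and 6 at an unadjusted p under 0.05. Of all genes, 2.43% and 2.69% were called there. For Soy-10% minus Cas-5% 1 was higher and 3 lower, *Cyp39a1* (-0.84, adjusted p = 0.0065), *Acnat1* (-0.67, adjusted p = 0.011) and *Acnat2* (-0.79, adjusted p = 0.017) being the lower ones. Of all genes, 6.14% were higher and 4.59% lower in that comparison.

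Of the other transport genes, *Ephx1*, the microsomal epoxide hydrolase that has been linked to sodium-dependent bile acid uptake, was higher in soy-fed than casein-fed control livers. Its normalized count ran from 1144 to 1874 in Cas-20%, from 2047 to 3649 in Soy-20% and from 1790 to 2919 in Soy-20% + SAA. It was 1.91-fold higher in Soy-20% (log2 difference 0.93, adjusted p = 0.0034) and 1.67-fold higher in Soy-20% + SAA (0.74, adjusted p = 0.026) than in Cas-20%. It also rose 2.29-fold with casein restriction (1.20, adjusted p = 8.5e-07) and 1.61-fold with soy restriction against Soy-20% + SAA (0.69, adjusted p = 0.00099). *Abcg5*, a subunit of the canalicular sterol exporter, was lower than in Cas-20% in both Soy-20% + SAA (-0.67, adjusted p = 0.018) and Soy-20% (-0.49, adjusted p = 0.04). The organic anion carrier *Slco1a4* was higher in Soy-20% + SAA than in Cas-20% (1.03, adjusted p = 0.03) and higher in Soy-10% than in Cas-5% (1.15, adjusted p = 0.00013). It fell with soy restriction against Soy-20% + SAA (-0.79, adjusted p = 0.0048), and its mean was 386.5 in Cas-20% and 204.9 in Cas-5%. Mean *Abcb4* was 3129 in Cas-20% and 4382 in Cas-5%, and mean *Slco2b1* 1523 and 1003. Calls of these transport genes that use Soy-20% + SAA were not checked with the GC slope as a covariate. In counts, 2 of 14 transport genes tested were higher and 2 lower with casein restriction, 3 higher and 2 lower with soy restriction, and 4 higher and 2 lower in Soy-10% than in Cas-5%. Over all genes the shares higher and lower were 11.6% and 13.3%, 8.51% and 8.47%, and 6.14% and 4.59%. Of 15 tested, 2 were higher and 1 lower in Soy-20% + SAA and 1 higher and 1 lower in Soy-20% than in Cas-20%. Over all genes these shares were 1.01% and 1.42%, and 1.24% and 1.45%.

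**Figure D5:**
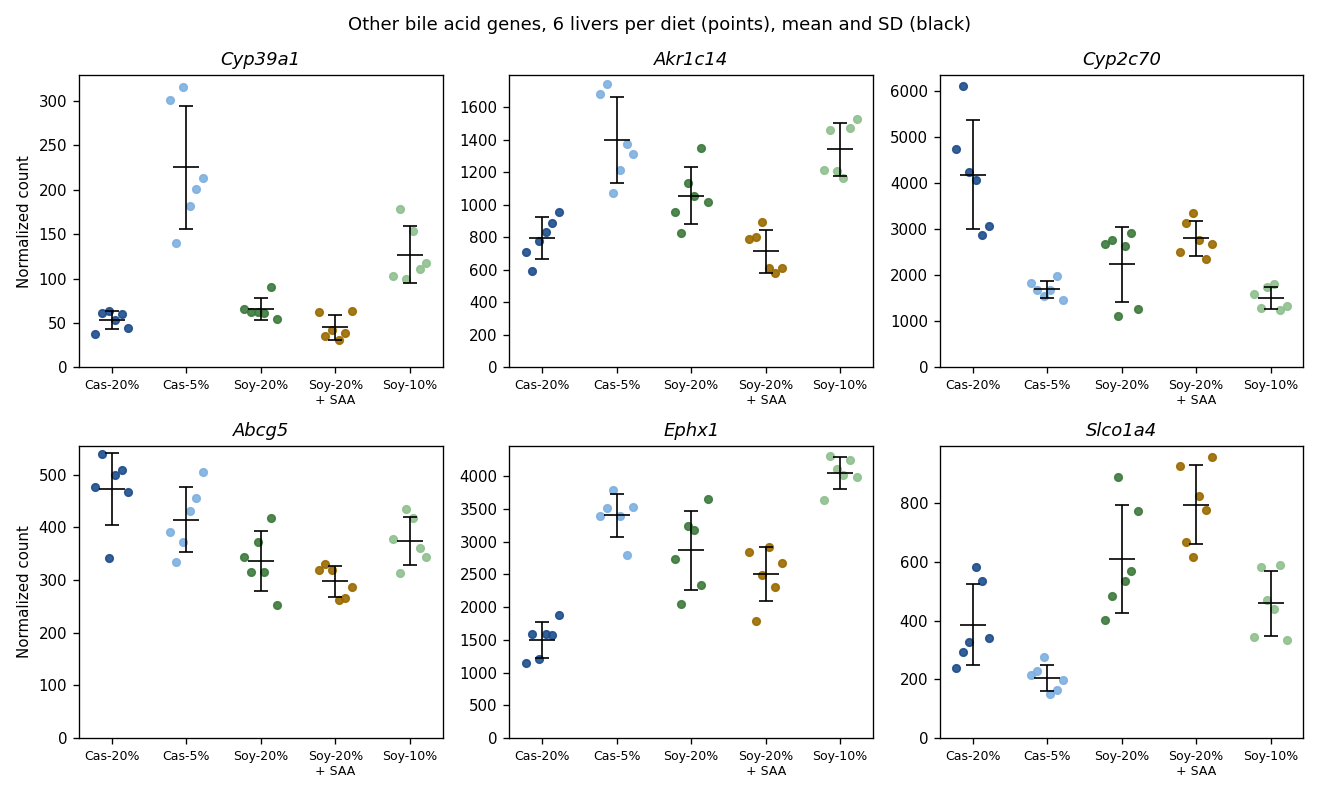
Normalized counts (vertical axes, from 0) of 6 further bile acid genes by diet, each liver a point, with mean and SD in black, 6 livers per diet. By mean, *Cyp39a1* and *Akr1c14* stand highest in the restricted diets and *Cyp2c70* lowest there, while *Ephx1* is lowest and *Abcg5* highest in Cas-20%. The lowest single *Cyp2c70* liver, at 1125, is in Soy-20%.

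Among 16 regulators tested, 2 were higher and 2 lower with casein restriction, where 11.6% of all genes were called higher and 13.3% lower. *Nr1h3*, the oxysterol receptor LXR-alpha, fell (log2 difference -0.28, adjusted p = 0.004), while *Hnf4a* (0.27, adjusted p = 0.005) and the xenobiotic receptor *Nr1i3* (0.79, adjusted p = 0.0087) rose. With soy restriction against Soy-20% + SAA 2 were higher and 2 lower, including *Ppara* (-0.52, adjusted p = 0.0073), the bile acid receptor FXR gene *Nr1h4* (0.34, adjusted p = 0.018) and *Nr1h2* (0.43, adjusted p = 0.027). Of all genes, 8.51% were higher and 8.47% lower there. None was called by edgeR for Soy-20% + SAA minus Cas-20%, with 6 at an unadjusted p under 0.05, and 1 was for Soy-20% minus Cas-20%, the LRH-1 gene *Nr5a2* (-0.25, adjusted p = 0.033). Of all genes, 2.43% and 2.69% were called in these comparisons. Soy-10% minus Cas-5% called *Nr1h3* (0.28, adjusted p = 0.0016) higher and *Prox1* (-0.54, adjusted p = 0.0023) and *Nr1i3* (-0.33, adjusted p = 0.0029) lower, where 6.14% of all genes were higher and 4.59% lower.

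Markers of liver zones and of other cells moved with diet beside these genes. Of 5 periportal genes, 4 were lower and 0 higher with casein restriction, 3 were lower in Soy-20% + SAA and 1 in Soy-20% than in Cas-20%, and 4 were higher and 1 lower in Soy-10% than in Cas-5%. Of 5 pericentral genes, 1 was lower with casein restriction, and 2 were lower in Soy-20% + SAA and 1 in Soy-20% than in Cas-20%. With soy restriction against Soy-20% + SAA, 2 pericentral genes were higher and 2 lower, and 1 periportal gene was lower. In Soy-10% against Cas-5%, 1 pericentral gene was higher and 1 lower. The summed normalized count of the periportal genes ran from 27635 to 39251 in Cas-20%, 18673 to 27042 in Cas-5%, 22991 to 30033 in Soy-20%, 19472 to 29463 in Soy-20% + SAA and 21402 to 26474 in Soy-10%. The sum of 5 pericentral genes ran from 38462 to 62206 in Cas-20%, 38944 to 43595 in Cas-5%, 35041 to 49982 in Soy-20%, 26677 to 45962 in Soy-20% + SAA and 34586 to 42481 in Soy-10%. Of 5 stellate cell markers 2 were higher with casein restriction and 3 lower in Soy-10% than in Cas-5%, 1 of 5 endothelial markers was higher with casein restriction, and 1 of 5 Kupffer cell markers was higher with soy restriction. Over all genes, 11.6% were higher and 13.3% lower with casein restriction, and 8.51% and 8.47% with soy restriction against Soy-20% + SAA. In Soy-10% against Cas-5%, 6.14% of all genes were higher and 4.59% lower. Against Cas-20%, 1.42% were lower in Soy-20% + SAA and 1.45% in Soy-20%. The 6 cholangiocyte markers in the table summed to between 370.5 and 1044 in any liver, and *Krt7* was at 0 in at least 1 Soy-20% + SAA liver. Of 3 cholangiocyte markers tested, 1 was lower with casein restriction and 2 with soy restriction against Soy-20% + SAA, and 0 were higher. Against Soy-20%, 2 were lower and 0 higher, where 0.546% of all genes were lower. Mean *Sox9* was 322.1 in Cas-20%, 227.4 in Cas-5%, 266.2 in Soy-20% + SAA and 174 in Soy-10%. Mean *Spp1* was 177.4, 183.9, 146.1 and 119.5 in the same order. One of the 6 markers, *Slc10a2*, is itself the apical sodium-dependent bile acid transporter, and it is named here after its values were seen. It ran from 287.9 to 453.6 in Cas-20% and from 70.82 to 181.2 in Cas-5% (log2 difference -1.58, adjusted p = 6.8e-06), and from 216.6 to 332.1 in Soy-20% + SAA and from 104.9 to 157.7 in Soy-10% (-1.0, adjusted p = 0.00035). The part of zonation or cell type in the members' values was not tested.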

How the data were processed

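Total liver RNA of 30 mice was measured, 1 library per mouse and 6 per diet, with the Lexogen QuantSeq 3′ kit. The first deposited table holds raw counts per gene, which the authors made with the Lexogen pipeline on the Bluebee platform and build GRCm38, without normalization. The aligner and annotation release are not given in the sources used here, and the read length is 50 bp in the labels. The other deposited table is a normalized signal made from these counts, each library's counts divided by a DESeq2 size factor (per the labels DESeq2 1.30 in R 4.0.3). Every gene has at least 90 counts over the 30 livers.

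Counts per library, 7694015 to 14565542, gave the members a CV from counting error alone of 1.13 to 5.80%, against 2.28 to 54.2% between livers of 1 diet. edgeR 4.0.16 (R 4.3.3) with TMM, filterByExpr and the quasi-likelihood F test, two-sided, was fitted to the 12 livers of each comparison (24 for the difference of effects, 30 for the joint test), with Benjamini-Hochberg adjustment over all genes at 0.05. Scripts were tested on simulated data. Alternatives were DESeq2 1.42.0, RLE size factors, no count filter, a mean of at least 10 counts, all 30 livers in 1 fit, the label's liver number as a block, the GC slope as a covariate, Soy-20% + SAA livers 3 to 6 left out, Soy-20% as the soy control and each liver left out. The slope was taken over 11967 genes from the last 200 nucleotides of GENCODE M21 transcripts, each library's log2 level against the mean of all. Promoters came from RefSeq GRCm38.p6 and matched 5 of the 9 members. The members and all gene lists were chosen with earlier results of these data known. Beyond the members, the text names at most 3 called genes per role and comparison by smallest adjusted p, and the 3 genes most correlated (log2 CPM, prior count 2) with *Cyp7a1*, *Cyp8b1* and *Nr0b2*. *Ch25h*, *Slc51a*, *Gpbar1*, *Cftr* and *Cela2a* were not used here. Figures were drawn with matplotlib 3.10.9.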

Additional observations from a re-analysis of the deposited data

Results flagged for a closer look

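The effect of casein restriction on *Nr0b2* differed from that of soy restriction by the test of the difference itself, at -1.0 on the log2 scale (edgeR adjusted p = 0.042, 24 livers), the casein effect being -0.56 and the soy effect, not itself called, 0.43. The difference was -1.25 (adjusted p = 0.071) without the 4 Soy-20% + SAA libraries that stood apart and -1.01 (adjusted p = 0.053) without the Soy-10% library with acinar RNA. With the GC slope as a covariate it was -1.04 (adjusted p = 0.087), and the call held in 10 of 24 fits without 1 liver. In 45 groups of 6 livers, 9 genes in 5 diets, 0 had a highest or lowest liver whose gap to the next was above Dixon's critical value, where chance flags about 1 in 20 groups.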

How the results depend on the processing

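Of 1521 values of single members under an alternative, 1394 kept their direction and their side of the threshold, 66 lost a call, 23 gained one and 38 changed sign, and 0 of these 38 belonged to a called value. The causes of the changes below were not tested. The number of members called moved by over 1.5 times as follows. With all 30 livers in 1 fit it was 2 for casein restriction, 1 for Soy-20% minus Cas-20%, 1 for Soy-20% + SAA minus Soy-20% and 3 for the difference of effects. DESeq2 called 1 for Soy-20% + SAA minus Soy-20% and 3 for the difference of effects. With the GC slope as a covariate 0 were called for Soy-10% minus Soy-20% + SAA and 0 for Soy-20% + SAA minus Cas-20%, where 380 and 5 of all genes were called, against 2035 and 291. Without Soy-20% + SAA livers 3 to 6 the counts were 0 and 0, and 0 for the difference of effects, with 317, 3 and 296 of all genes called. The labels number the livers 1 to 6 in each diet, but same-numbered livers mostly did not deviate together. Of 42 pairs, 7 had a correlation of deviations over 0.1 (range -0.19 to 0.19), and in 0 comparisons did every pair. Among these 7 were the pairs of liver 6 from different soy diets, at 0.17 to 0.19. The pair of liver 6 from Soy-10% and Cas-5%, at 0.17, was also among them. With the replicate block, a fit that pairs livers by number all the same, 1 was called for Soy-20% + SAA minus Cas-20%, 1 for Soy-20% minus Cas-20% and 2 for the difference of effects. For Soy-10% minus Soy-20% + SAA it called *Cyp7a1* (0.52, adjusted p = 0.043) and not *Slc27a5* (-0.22, adjusted p = 0.05). Smaller moves were from 2 to 3 with DESeq2 for Soy-20% + SAA and for Soy-20% minus Cas-20%, to 3 with all 30 livers for the former, and from 3 to 2 for Soy-10% minus Cas-5% with no count filter, all 30 livers, the block or 1 liver left out. Leaving out 1 liver gave 1 to 3 for Soy-10% minus Soy-20% + SAA, 1 to 4 for Soy-20% + SAA minus Cas-20%, 1 to 3 for Soy-20% minus Cas-20%, 0 to 1 for Soy-20% + SAA minus Soy-20% and 0 to 2 for the difference of effects.

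The values that changed sign, none of them called, were these. With the GC slope as a covariate Soy-10% minus Soy-20% + SAA was -0.02 for *Abcb11* and 0.06 for *Slc10a1*, Soy-20% + SAA minus Cas-20% was 0.14 for *Cyp27a1*, 0.01 for *Baat* and -0.02 for *Slc27a5*, Soy-20% + SAA minus Soy-20% was 0.15 for *Cyp27a1*, and the difference of effects was 0.04 for *Abcb11*. Without Soy-20% + SAA livers 3 to 6 these were 0.03 for *Slc10a1*, then 0.17, 0.09 and -0.03, then 0.13, and for the difference of effects 0.07 for *Cyp27a1* and 0.01 for *Abcb11*. With Soy-20% in place of Soy-20% + SAA the difference of effects was 0.04 for *Cyp7b1*, 0.13 for *Abcb11* and 0.11 for *Baat*. Leaving out 1 liver, the ranges that crossed 0 were -0.11 to 0.03 (*Cyp27a1*, Soy-10% minus Soy-20% + SAA), -0.21 to 0.04 (*Cyp7b1*, Soy-20% + SAA minus Cas-20%), -0.02 to 0.08 and -0.06 to 0.04 (*Cyp27a1* and *Abcb11*, Soy-20% minus Cas-20%), -0.03 to 0.26 and -0.10 to 0.03 (*Cyp7a1* and *Slc10a1*, Soy-10% minus Cas-5%), -0.06 to 0.03 (*Slc10a1*, Soy-20% + SAA minus Soy-20%), and -0.07 to 0.03 and -0.16 to 0.01 (*Abcb11* and *Slc10a1*, difference of effects).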

Other observations

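Because SHP is known to repress both hydroxylases, *Nr0b2* was set against *Cyp7a1* and *Cyp8b1* across livers, after the values had been seen. Log2 values were centred within each diet, and livers were permuted within diets (3 pairs of genes, 30 livers, 100000 resamples, two-sided permutation tests). *Cyp7a1* and *Nr0b2* had Pearson r = -0.28 (permutation p = 0.13, adjusted p = 0.4) and Spearman rho = -0.29 (permutation p = 0.14, adjusted p = 0.41), and r was -0.29 without the 2 livers farthest from the median. Within single diets r ran from -0.85 in Cas-20% and -0.76 in Soy-10% to 0.25 in Soy-20%, each over 6 livers. *Cyp8b1* and *Nr0b2* had r = 0.09 (permutation p = 0.65, adjusted p = 0.77) and rho = 0.07 (permutation p = 0.74, adjusted p = 0.83), and r = 0.05 without the 2 farthest livers. *Cyp7a1* and *Cyp8b1* had r = 0.06 (permutation p = 0.77, adjusted p = 0.77) and rho = 0.05 (permutation p = 0.83, adjusted p = 0.83), and r = 0.11 without the 2 farthest livers. None of the 3 relations passed its test at this number of livers.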
